A study of Mus musculus with 24 samples.

Results

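The 31 collagen chain genes measured in mouse skin are described here. They are the chains, named Col with a type number and a chain number, whose mean reached 0.5 FPKM in at least 1 of 6 groups of mice. FPKM is a fragment count scaled to gene length and library size. The deposited table held 44 such chains among 18892 genes. Skin was taken from 24 mice, 4 in each group. Treatment mice were injected daily with dihydrotestosterone (DHT, an androgen) and had an extract of HLX, the Hanlianxiang formula of traditional Chinese medicine, applied to the skin. Model mice were injected with DHT and had only solvent applied. Control mice were injected with saline and had only solvent applied. Each of these 3 groups was sampled at day 15 and at day 10. Age, sex and strain of the mice were not given in the sources used here.

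Collagens are proteins whose chains wind around each other into a helix, and each chain is made from its own gene. Fibrillar collagens form the cross-striated fibres that give the dermis its strength, and dermal fibroblasts make most of them. Network-forming collagens build the basement membrane under the epidermis and around follicles, vessels and nerves. FACIT collagens sit on the surface of fibrils, transmembrane collagens anchor cells, and beaded filaments of collagen VI lie between fibres and cells. The comparison of model with control skin asks what DHT did to these transcripts, and that of treatment with model skin asks what the extract did on top of DHT.

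Recovered totals ran between 37048896 and 41117262 reads per library. Marker genes of skin were present: summed fibroblast markers reached 1077 to 2891 FPKM, basal keratinocyte markers 645 to 1463 FPKM and hair shaft markers 868 to 3348 FPKM. Several libraries stood apart. Treatment day 15 replicate 3 had the lowest value of its group in 25 of 31 chains, and so did model day 10 replicate 1. Control day 10 replicate 3 had the lowest in 22. The sum of 4 Y-linked transcripts was 48.3%, 48.2% and 72.2% of the control mean in treatment day 15 replicates 1, 2 and 4, and 61.2% in treatment day 10 replicate 3. Kap, a kidney transcript, stood at 14.0 to 20.5 FPKM in model and 19.9 to 23.9 FPKM in control libraries of day 10, and at 0 in the other 16 libraries. Umod, a second kidney transcript, stood at 1.075 to 1.677 FPKM in model and 1.57 to 2.002 FPKM in control libraries of day 10. It too was at 0 in the other 16. Comparisons of both days in model or control mice, and of treatment with other day 10 groups, therefore set libraries with Kap against libraries without it. The Y-linked and kidney transcripts were chosen after their values were seen, and their part in the results was not tested. In whole skin, fewer cells of a type and less RNA per cell cannot be told apart.

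Most of the collagen signal came from 3 fibrillar chains. Col1a1 and Col1a2, the chains of type I collagen, and Col3a1, the single chain of type III, together gave 82.9% to 93.7% of the summed FPKM of all 31 chains. The 31 chains held 1.40 ± 0.63% of a library's FPKM in treatment, 2.09 ± 0.64% in model and 1.10 ± 0.14% in control skin at day 15. At day 10 the shares were 1.88 ± 0.15% in treatment, 2.01 ± 0.33% in model and 1.11 ± 0.20% in control skin (SD, n = 4 each). Type V chains, which set the width of type I fibrils, came next among the 8 fibrillar members: Col5a2 averaged between 53.8 and 115 FPKM over the groups and Col5a1 between 32.1 and 64.6 FPKM. Col5a3, Col11a1 and Col27a1 were lower, with highest group means of 18.9, 14.9 and 0.777 FPKM.

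Among the 6 basement membrane network chains, Col4a1 and Col4a2, which form the most widespread type IV trimer, averaged 82.5 and 44.6 FPKM in day 15 control skin, the lowest of their group means, while Col4a5 averaged at most 5.29 FPKM in any group and Col4a3, Col4a4 and Col4a6 less. The basement membrane zone members were Col15a1 and Col18a1, which carry heparan or chondroitin sulfate chains, and Col7a1, the anchoring fibril collagen. Col15a1 averaged between 27.8 and 35.9 FPKM, and Col7a1 between 1.12 and 2.84 FPKM. Of 4 FACIT members Col14a1, Col16a1 and Col12a1 averaged between 9.89 and 31.02 FPKM, and Col20a1 at most 0.938 FPKM. The transmembrane members were Col17a1, the hemidesmosome collagen of basal keratinocytes, at group means of 28.96 to 51.4 FPKM, and Col23a1 at 1.55 to 3.1 FPKM. In the beaded filament class, Col6a1, Col6a2 and Col6a3 build the common collagen VI and averaged between 26.1 and 139 FPKM. Highest group means were 4.08 FPKM for Col6a5, 3.22 FPKM for Col6a6 and 1.49 FPKM for Col28a1. Those of the short chain members Col8a1 and Col8a2, which form the type VIII network of vessel walls, were 2.38 and 2.63 FPKM.

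**Figure D1:**
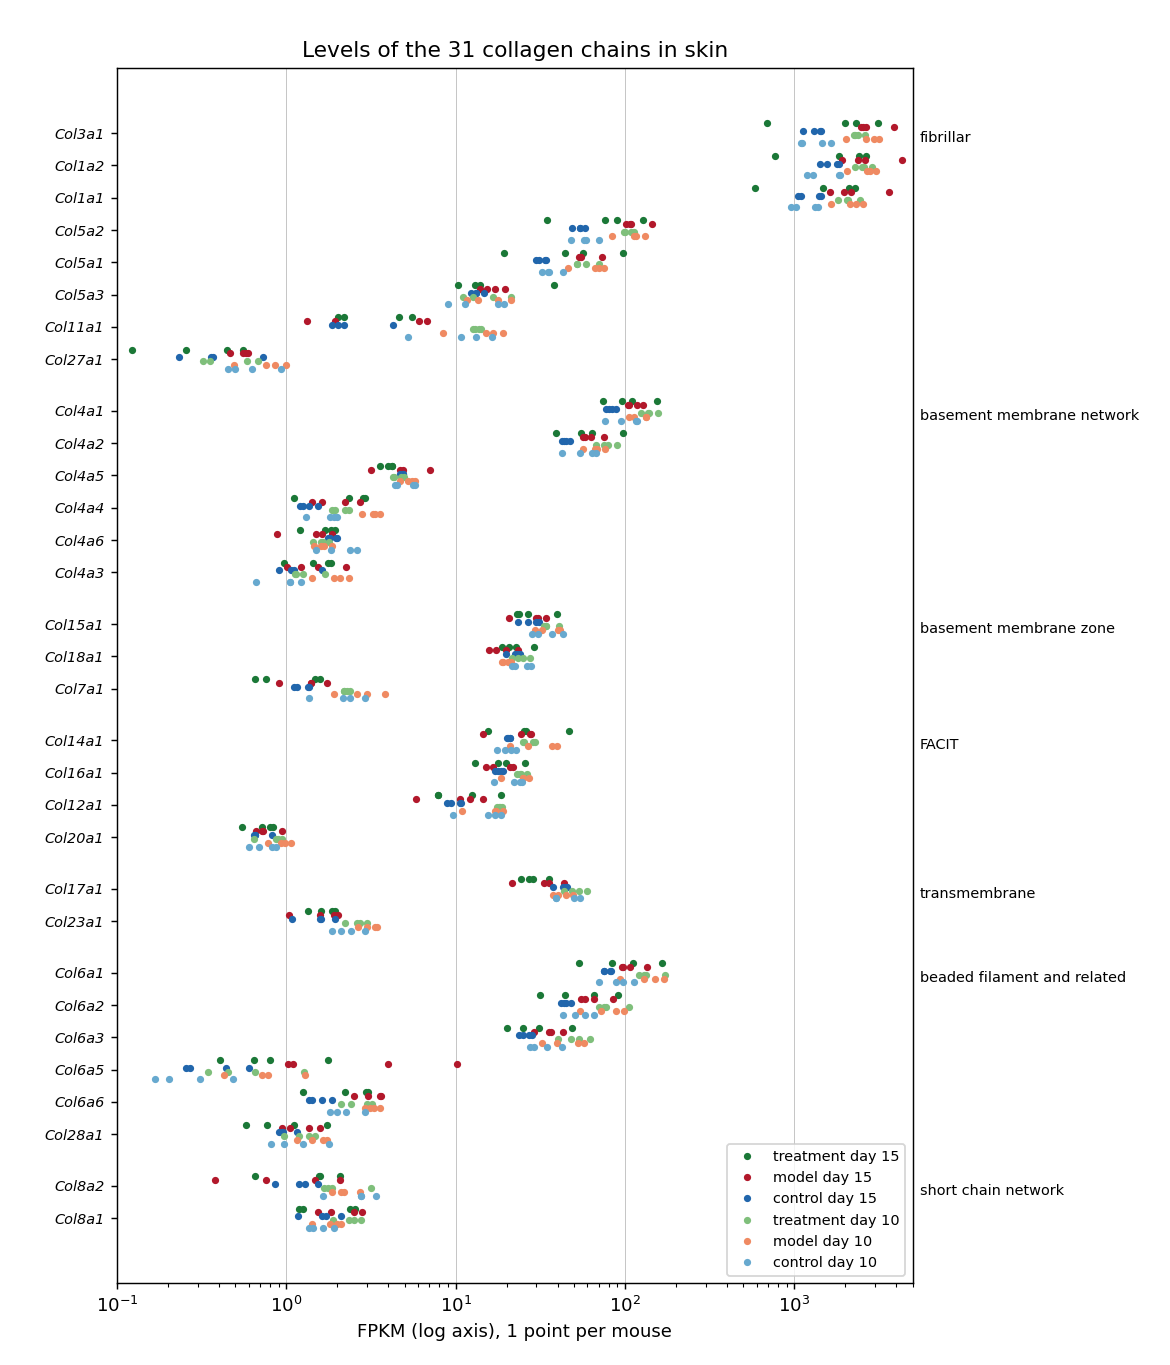
FPKM of the 31 collagen chains on a log axis, 1 point per mouse, coloured by group and ordered by class. Col3a1, Col1a2 and Col1a1 lie far above the rest, and Col11a1 shows the day 15 points left of nearly all day 10 points.

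The 2 members just above the threshold were Col27a1, with a highest group mean of 0.777 FPKM, and Col20a1, with 0.938 FPKM. Just below it were Col13a1 at 0.473 FPKM and Col24a1 at 0.332 FPKM. Chains of cartilage were close to 0: the highest group mean of Col2a1 was 0.0392 FPKM and that of Col10a1 0.0562 FPKM. The 4 osteoblast markers summed to at most 1.31 FPKM in any library. A filter of 1 FPKM in at least 4 libraries left 29 of the 31 members to test and removed Col20a1 and Col27a1. Each difference is one of mean log2(FPKM + 1), followed by ± its standard error (SE), from limma fitted to all 24 libraries. A gene is called when its Benjamini-Hochberg adjusted p over 13039 genes is under 0.05.

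In model against control skin at day 15, 4 of 29 tested chains were called higher and none lower: Col3a1, Col5a2, Col6a5 and Col6a6. Col6a5 met the filter only through these model mice. Over all genes 10.8% were called, 4.23% higher and 6.56% lower. The median chain differed by 0.27, against -0.03 over all genes tested. At day 10 again 4 of 29 were called higher and none lower: Col3a1, Col5a2, Col4a3 and Col4a4. Over all genes 13.8% were called there, 6.79% higher and 7.04% lower, and the median chain differed by 0.31, against -0.02 over all genes. Unadjusted p was under 0.05 for 12 chains at each day. The share of all genes under that unadjusted p is not given, here or below, so such counts cannot be set against all genes. Here and below, counts from fits with libraries left out or of only the groups compared lack the share of all genes called there. They cannot be set against all genes. Leaving out 1 library gave 3 to 5 called chains at day 15. At day 10 it gave 8 without model replicate 1, 2 without control replicate 4, 1 without model replicate 3 or 4, and 0 without model replicate 2 or control replicate 3. After scaling libraries to a common total, 61.1% of called genes were higher at day 15 and 63% at day 10, in place of 39.2% and 49.1%, and the same 4 chains were called at each day, with Col4a1 added at day 15.

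All 7 tested fibrillar chains had positive differences at both days, with a median of 0.85 at day 15 and 0.79 at day 10, and 2 of 7 were called at each day. Their sign held under both other scalings. Col3a1 reads in model mice at day 15 were 2668, 3904, 2463 and 2557 FPKM, against 1300, 1126, 1439 and 1415 FPKM in control mice. Each model mouse lay above each control mouse, and model replicate 2 stood above the other 3. The difference was 1.11 ± 0.30 (adjusted p = 0.0248). At day 10 Col3a1 stood at 2021, 2966, 2646 and 3169 FPKM in model mice and 1114, 1643, 1101 and 1460 FPKM in control mice. Groups did not overlap, and model replicate 1 was the lowest of its group. The difference was 1.02 ± 0.30 (adjusted p = 0.0287). The day 15 call was lost without model replicate 2 or control replicate 2, 3 or 4 (adjusted p up to 0.0763), and the day 10 call without model replicate 2, 3 or 4 or control replicate 1, 3 or 4 (adjusted p up to 0.0904).

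Col5a2 encodes the second chain of type V collagen. At day 15 it stood at 101, 144, 108 and 109 FPKM in model mice and 58.3, 48.7, 54.2 and 54.1 FPKM in control mice. All model mice were above all control mice. The difference was 1.07 ± 0.24 (adjusted p = 0.0132), and it stayed called when any 1 library was left out. At day 10 the values were 83.6, 117, 113 and 131 FPKM in model mice and 59.1, 70.5, 47.9 and 57.4 FPKM in control mice, again without overlap. There the difference was 0.90 ± 0.24 (adjusted p = 0.0212), and the call was lost without model replicate 2, 3 or 4 or control replicate 3 or 4 (adjusted p up to 0.0775).

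The type I chains did not pass at either day. Col1a1 stood at 1977, 3608, 1631 and 2157 FPKM in model mice of day 15, against 1101, 1058, 1435 and 1399 FPKM in control mice. At day 10 it stood at 1641, 2121, 2330 and 2549 FPKM in model mice, against 1018, 1328, 962 and 1378 FPKM in control mice. Neither day showed overlap, and model replicate 2 of day 15 was far above its group. Differences were 0.86 ± 0.31 at day 15 and 0.88 ± 0.31 at day 10, with adjusted p of 0.0719 and 0.0599. Col1a2 averaged 2822 ± 1068 FPKM in model and 1647 ± 190 FPKM in control skin at day 15, and 2643 ± 425 FPKM in model and 1546 ± 359 FPKM in control skin at day 10 (SD, n = 4 each). Its differences were 0.71 ± 0.29 and 0.79 ± 0.29 (adjusted p = 0.106 and 0.0734), and its groups did not overlap at either day. Without model day 10 replicate 1, the lowest of its group, both type I chains were called at day 10 (adjusted p = 0.0404 for Col1a1 and 0.0495 for Col1a2). So they were in a fit of the 2 day 10 groups alone (adjusted p = 0.0107 for Col1a1 and 0.0223 for Col1a2). Col5a1, the main chain of type V, differed by 0.85 ± 0.29 at day 15 and 0.78 ± 0.29 at day 10, without overlap at either day (adjusted p = 0.0594 and 0.0727). Col5a3 and Col11a1 differed by 0.27 and 0.34 at day 15, with overlapping groups.

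Promoter windows of 5 chains are printed here because Col3a1, Col6a5 and Col6a6 were called in model skin, Col1a2 is an abundant chain that was not, and Col11a1 had the largest differences between days. Each window holds 250 bases before and 50 after the gene start, 5′ to 3′ on the gene's strand, from RefSeq on build GRCm38.p6. The expression files rest on GRCm39, so windows were matched by symbol only. Capitals mark matches, on either strand, to the letters CCAAT, a common proximal promoter element, to TATAAA, a core promoter element, or to GGGCGG, the element read by Sp factors. TGTTCT, the core of steroid receptor elements, was also searched and is in none of the 5. No motif is part of another.
Col3a1, chr1:45311288-45311587, plus strand: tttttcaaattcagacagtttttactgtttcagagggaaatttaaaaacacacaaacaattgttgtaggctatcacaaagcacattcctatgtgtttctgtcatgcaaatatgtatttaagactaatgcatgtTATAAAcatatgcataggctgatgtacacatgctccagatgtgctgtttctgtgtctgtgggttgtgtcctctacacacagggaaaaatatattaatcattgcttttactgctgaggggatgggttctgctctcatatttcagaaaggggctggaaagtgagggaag
Col1a2, chr6:4505368-4505667, plus strand: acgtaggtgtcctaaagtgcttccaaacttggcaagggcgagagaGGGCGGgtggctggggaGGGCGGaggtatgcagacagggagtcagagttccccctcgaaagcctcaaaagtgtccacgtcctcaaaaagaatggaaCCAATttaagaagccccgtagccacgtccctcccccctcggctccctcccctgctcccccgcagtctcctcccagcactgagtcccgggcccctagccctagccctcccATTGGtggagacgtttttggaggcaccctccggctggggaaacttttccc
Col6a6, chr9:105828036-105828335, minus strand: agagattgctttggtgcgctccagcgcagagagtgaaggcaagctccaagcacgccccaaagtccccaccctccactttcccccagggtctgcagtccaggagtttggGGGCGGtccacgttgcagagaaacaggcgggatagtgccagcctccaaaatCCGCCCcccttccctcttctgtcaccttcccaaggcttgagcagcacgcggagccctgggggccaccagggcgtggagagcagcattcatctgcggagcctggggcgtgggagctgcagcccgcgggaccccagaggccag
Col6a5, chr9:105960594-105960893, minus strand: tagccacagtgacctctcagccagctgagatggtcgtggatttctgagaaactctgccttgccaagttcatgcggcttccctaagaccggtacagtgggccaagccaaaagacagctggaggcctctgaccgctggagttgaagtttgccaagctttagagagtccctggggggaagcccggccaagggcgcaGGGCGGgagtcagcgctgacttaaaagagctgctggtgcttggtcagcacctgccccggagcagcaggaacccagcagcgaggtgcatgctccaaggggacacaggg
Col11a1, chr3:114030290-114030589, plus strand: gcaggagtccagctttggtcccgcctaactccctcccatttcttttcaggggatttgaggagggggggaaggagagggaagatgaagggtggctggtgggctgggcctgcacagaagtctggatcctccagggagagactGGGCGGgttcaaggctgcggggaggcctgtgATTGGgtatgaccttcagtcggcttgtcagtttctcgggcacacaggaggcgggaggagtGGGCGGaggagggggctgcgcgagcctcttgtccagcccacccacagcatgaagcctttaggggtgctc

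Col3a1 was the only one of these windows with TATAAA, starting 117 bases before the gene start, and it held neither CCAAT nor GGGCGG. Col1a2 held CCAAT at 109 bases before the start and, on the other strand, at the start itself, and GGGCGG at 205 and 188 bases before the start. Both collagen VI windows held GGGCGG, as did that of Col11a1. Windows were listed for 26 of the 31 members, and for 27025 genes in all, which were not filtered by their level in skin as the members were. GGGCGG was in 18 of the 26 (69.2%), against 38.2% of all genes. CCAAT was in 10 (38.5%, against 41.1%), TATAAA in 2 (7.69%, against 15.7%) and TGTTCT in 1, Col20a1 (3.85%, against 21.3%). These matches describe letters in the windows and say nothing of factor binding.

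Among the basement membrane network chains, Col4a3 and Col4a4, which pair with Col4a5 in the trimer best known from kidney, lung and ear, were called at day 10. Col4a4 stood at 2.78, 3.59, 3.23 and 3.32 FPKM in model mice and 1.92, 1.81, 1.30 and 1.99 FPKM in control mice. Col4a3 stood at 1.42, 2.07, 2.33 and 1.91 FPKM in model mice and 1.22, 1.05, 0.666 and 1.06 FPKM in control mice. In both, all model mice were above all control mice. Differences were 0.62 ± 0.16 for Col4a4 and 0.55 ± 0.15 for Col4a3 (adjusted p = 0.0155 and 0.0214). The call for Col4a4 was lost without model replicate 2 or control replicate 3 (adjusted p up to 0.0619), and that for Col4a3 without model replicate 2, 3 or 4 or control replicate 3 (adjusted p up to 0.0852). At day 15 they differed by 0.34 and 0.19, with overlapping groups and no call. Both groups of day 10 held Kap. Col4a3 and Col4a4 are neighbours whose annotated gene bodies overlap on opposite strands, and the counting strand was not given, so their reads may be shared.

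Col4a1 and Col4a2 start close together on opposite strands, and their RefSeq windows share 78 bases (printed on the plus strand, with no capitals, to show how close the pair lies).
Col4a1 and Col4a2, chr8:11312777-11312854 of GRCm38.p6, plus strand: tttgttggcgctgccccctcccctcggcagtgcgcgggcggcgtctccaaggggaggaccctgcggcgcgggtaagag
Col4a1 stood at 129, 105, 104 and 118 FPKM in model mice of day 15, against 88.1, 84.3, 80.2 and 77.5 FPKM in control mice. All model mice were above all control mice, but the difference of 0.46 ± 0.16 did not pass (adjusted p = 0.0669). At day 10 the values were 106, 113, 133 and 132 FPKM in model mice and 117, 118, 76.5 and 94.2 FPKM in control mice, which overlapped. Col4a2 differed by 0.49 ± 0.19 at day 15 (adjusted p = 0.0899) and 0.24 ± 0.19 at day 10 (adjusted p = 0.403). Col4a5 and Col4a6, the X-linked pair of the epidermal basement membrane, differed by -0.01 and -0.24 at day 15 and by 0.06 and -0.20 at day 10.

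The collagen VI genes Col6a5 and Col6a6, whose chains can stand in for the α3 chain, were called at day 15. Col6a5 stood at 1.02, 1.10, 10.2 and 3.98 FPKM in model mice, against 0.271, 0.255, 0.599 and 0.440 FPKM in control mice. The groups did not overlap, and model replicate 3 was far above the rest of its group. Col6a5 met the filter of 1 FPKM in at least 4 libraries only through these model mice, where it is high. Its being tested thus depended on the values compared. The difference was 1.5 ± 0.36 (adjusted p = 0.0170). Both voom on recovered reads (2.85) and a pseudocount of 0.1 (2.54) gave larger values of this low gene, and the call held. Without model replicate 3 the difference was 0.997 (adjusted p = 0.0438), and in a fit of these 2 groups alone the adjusted p was 0.105. Col6a6 stood at 3.05, 3.62, 2.49 and 3.56 FPKM in model mice and 1.43, 1.37, 1.86 and 1.62 FPKM in control mice, without overlap. It differed by 0.70 ± 0.15 (adjusted p = 0.0113) and stayed called when any 1 library was left out. At day 10 Col6a5 and Col6a6 differed by 0.47 and 0.39 and were not called.

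Col6a1, the beaded filament chain of highest level, stood at 95.6, 134, 98.0 and 108 FPKM in model mice of day 15 and 82.9, 75.6, 81.5 and 75.1 FPKM in control mice. All model values were above all control values. At day 10 it stood at 93.8, 129, 150 and 170 FPKM in model mice and 97.4, 113, 70.6 and 88.8 FPKM in control mice, which overlapped. Differences were 0.45 ± 0.24 and 0.54 ± 0.24 (adjusted p = 0.210 and 0.137). All 6 chains of the class had positive differences at both days, with medians of 0.49 at day 15 and 0.44 at day 10. Over all members, 12 chains had model values above all control values at day 15 and 7 at day 10, where 7.89% and 12.5% of all genes did.

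**Figure D2:**
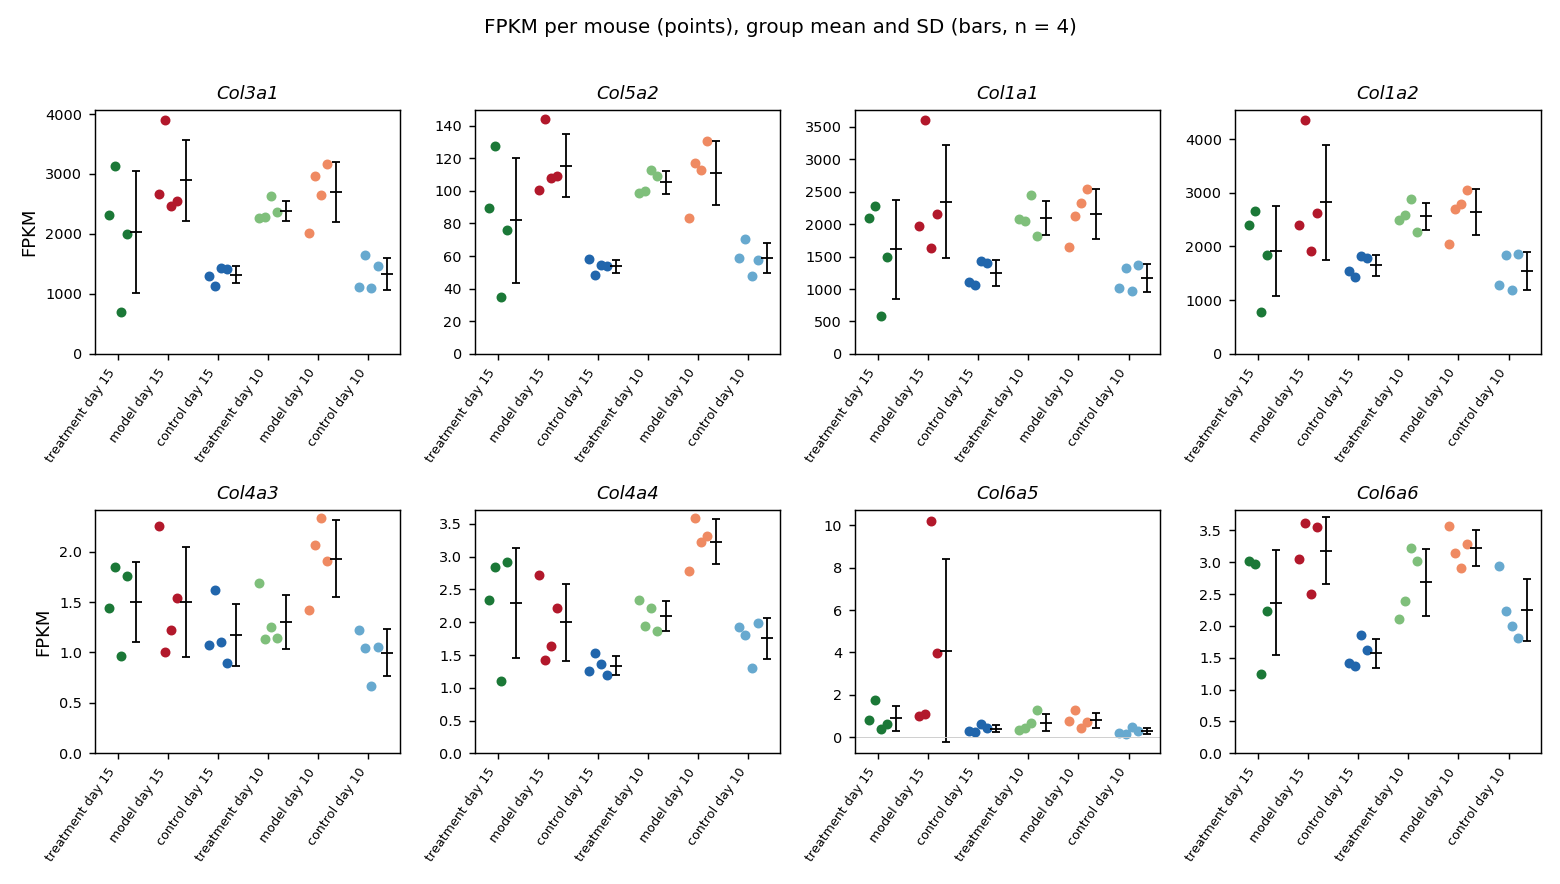
FPKM per mouse (points) with group mean and SD (bars, n = 4) for the 6 chains called in model against control skin and both type I chains. Col3a1 and Col5a2 show model points above all control points at both days, and treatment day 15 replicate 3 is the lowest treatment point in 8 of 8 panels of that day.

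The remaining classes gave no call in model skin. Col15a1 stood at 30.7, 34.4, 20.6 and 30.0 FPKM in model mice of day 15, against 30.99, 26.6, 30.0 and 23.5 FPKM in control mice, and differed by 0.04 ± 0.17. Col14a1, a FACIT chain of the dermis, stood at 27.8, 14.5, 27.5 and 24.4 FPKM in model mice of day 15 and 20.1, 21.1, 20.4 and 21.0 FPKM in control mice. At day 10 it stood at 20.9, 39.5, 26.8 and 36.9 FPKM in model mice and 21.2, 22.8, 19.5 and 17.7 FPKM in control mice. Groups overlapped at both days, and the differences were 0.14 ± 0.24 and 0.55 ± 0.24 (adjusted p = 0.723 and 0.124). Col17a1 averaged 33.5 ± 9.12 FPKM in model and 42.8 ± 3.59 FPKM in control skin of day 15 (SD, n = 4 each), a difference of -0.38 ± 0.16 (adjusted p = 0.123). Beside it, 3 of 5 basal keratinocyte markers were called lower at day 15, as were 6.56% of all genes. The list summed to 645 to 1107 FPKM in model against 1315 to 1463 FPKM in control libraries, and leaving out 1 library gave 1 to 3 called lower. None of the 5 was at 0 in every library, and the part of this shift in the Col17a1 values was not tested. Col18a1, the source of endostatin, had all model values below all control values at day 10, as did 9.3% of all genes (-0.28 ± 0.12, adjusted p = 0.123). Col8a2 stood at 1.48, 0.757, 0.381 and 2.09 FPKM in model mice of day 15, against 1.54, 1.19, 1.29 and 0.856 FPKM in control mice. The groups overlapped, and the differences were -0.09 at day 15 and -0.16 at day 10.

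**Figure D3:**
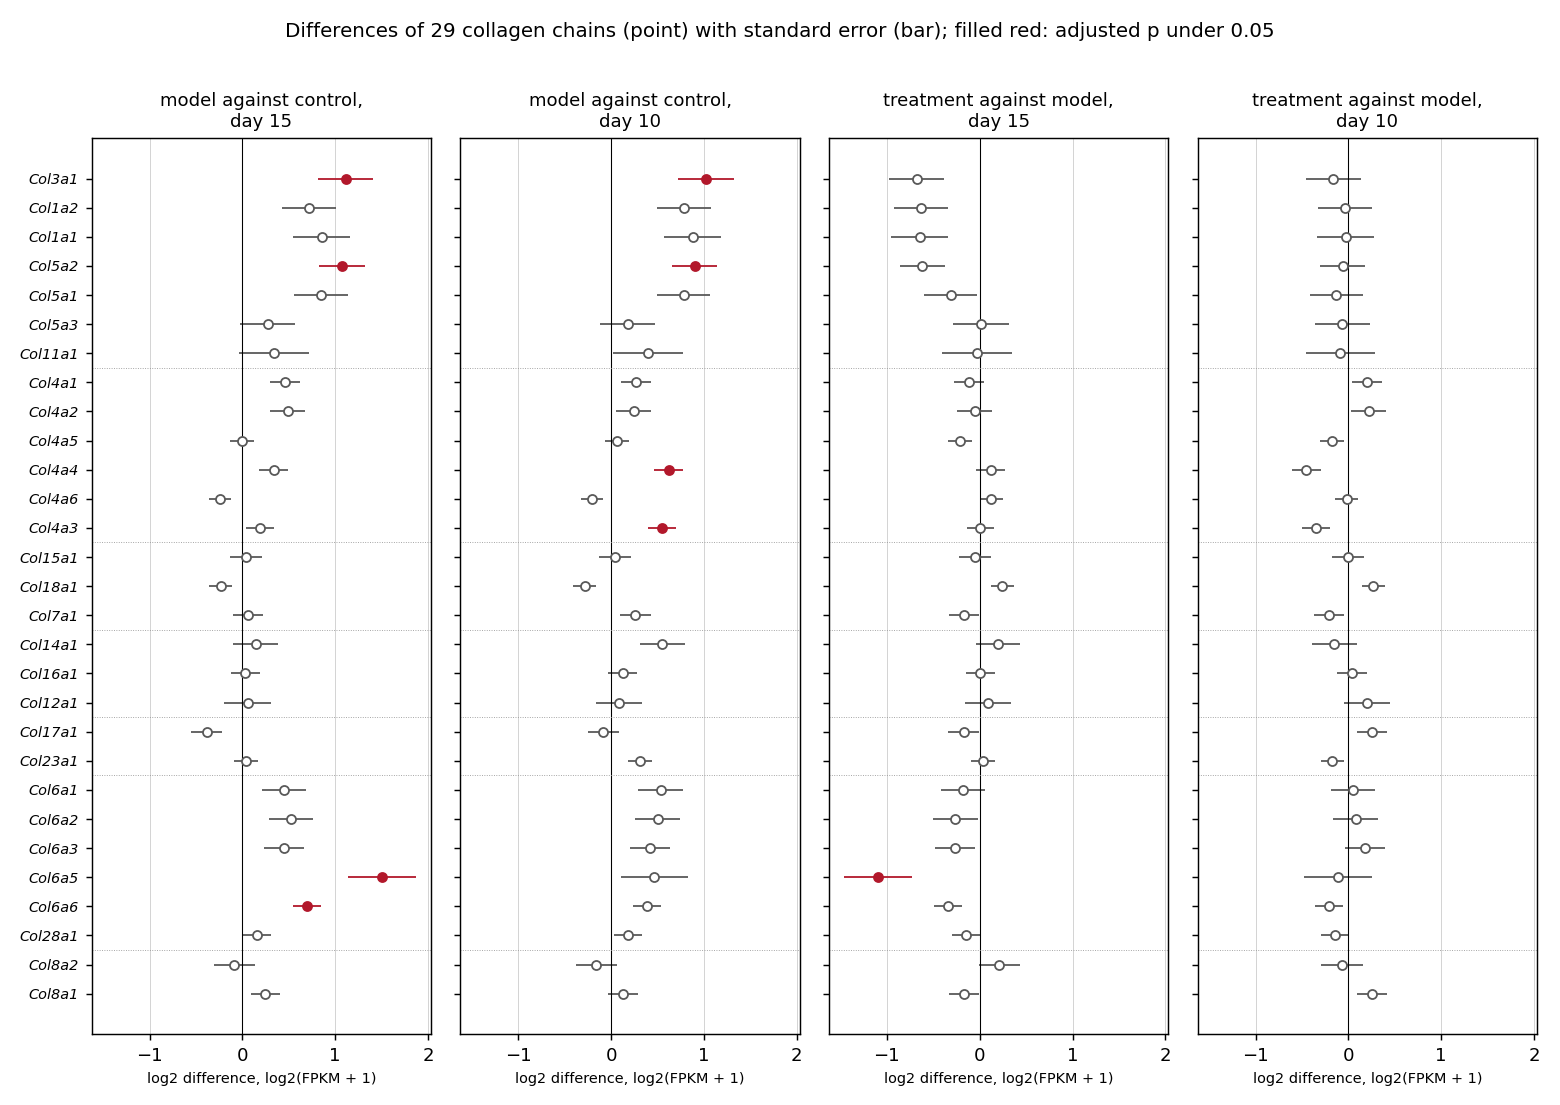
Log2 differences of the 29 tested chains (points) with SE (bars) in the 4 main comparisons, ordered by class, with called chains filled red. Fibrillar and beaded filament points lie right of 0 in both model against control panels, and in treatment against model skin Col6a5 alone is filled.

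Genes that make, process and remove collagen were read from lists of textbook members. In the list of synthesis and folding genes, 3 of 19 tested were called higher in model skin at day 15 and 3 at day 10, and none lower, where 4.23% of all genes were called higher at day 15 and 6.79% at day 10. Plod1, a lysyl hydroxylase, was called at both days (0.86 ± 0.22 and 0.85 ± 0.22). Serpinh1, the collagen chaperone HSP47, was called at day 15 (0.69 ± 0.22, adjusted p = 0.0499). Of 20 processing and assembly genes, 6 were called higher at day 15 and 8 at day 10, and none lower, beside the same shares of all genes. Lox, the enzyme that starts cross-linking, stood at 134, 133, 124 and 115 FPKM in model mice of day 15, against 38.5, 30.5, 36.7 and 48.1 FPKM in control mice. At day 10 it stood at 73.2, 120, 114 and 128 FPKM in model mice and 33.5, 49.4, 27.7 and 45.3 FPKM in control mice. The lowest model mouse was above the highest control mouse at both days, with differences of 1.71 ± 0.36 and 1.46 ± 0.36 (adjusted p = 0.00988 and 0.0151). The day 10 call was lost without model replicate 3 or control replicate 3 (adjusted p up to 0.0581). Dcn, the fibril-binding proteoglycan decorin, rose by 0.67 at day 15 and 0.83 at day 10 (adjusted p = 0.0227 and 0.00622). Its day 15 call was lost without model replicate 2 or control replicate 2, 3 or 4 (adjusted p up to 0.0760). The Plod1 calls were lost at day 15 without model replicate 2 or 3 or control replicate 2, 3 or 4 (adjusted p up to 0.0632) and at day 10 without model replicate 2, 3 or 4 or control replicate 3 (adjusted p up to 0.0572), and that of Serpinh1 without model replicate 2, 3 or 4 or control replicate 1, 2, 3 or 4 (adjusted p up to 0.15). The Serpinh1 call was also lost with a pseudocount of 0.1 (adjusted p = 0.0508), with no filter (adjusted p = 0.0711) and with median-of-ratios scaling (adjusted p = 0.0544).

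Single libraries decided much of these counts. At day 15 the count of synthesis genes called higher was 0 without model replicate 2 or control replicate 2, 3 or 4, and 1 without model replicate 3 or control replicate 1. That of processing genes was 1, Lox, without control replicate 2, 3 or 4, and 2 without model replicate 2, 3 or 4 or control replicate 1. At day 10 the synthesis count was 0 without model replicate 2, 3 or 4 or control replicate 3, 1 without control replicate 1 or 4, and 9 without model replicate 1. The processing count at day 10 was 3, namely Fn1 (fibronectin), Dcn and Tnxb (tenascin X), without model replicate 3 or control replicate 3. It was 4 without model replicate 2, and 5 without model replicate 4 or control replicate 1. With no filter the synthesis count was 1 at each day and the processing count 2 at day 15. In a fit of the 2 groups alone the synthesis count was 8 at each day, and with a common total it was 6 at day 15.

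Of 17 genes of collagen breakdown and its inhibitors, 2 were called higher at day 15 and 3 at day 10, and none lower, where 4.23% and 6.79% of all genes were called higher. Ctsk, the collagen-cleaving cathepsin K, stood at 448, 882, 322 and 501 FPKM in model mice of day 15 and 260, 232, 239 and 221 FPKM in control mice. It differed by 1.08 ± 0.31 at day 15 and 1.20 ± 0.31 at day 10. Mmp14, a membrane-bound collagenase, differed by 0.73 ± 0.20 and 0.67 ± 0.20. The calls at day 15 were lost without model replicate 2 or 4 or control replicate 2, 3 or 4 (adjusted p up to 0.114) for Ctsk and without model replicate 2 or 3 or control replicate 2, 3 or 4 (adjusted p up to 0.0841) for Mmp14. That of Ctsk at day 15 was also lost with no filter (adjusted p = 0.0501) and in a fit of the 2 groups alone (adjusted p = 0.0528). At day 10 they were lost without model replicate 2, 3 or 4 or control replicate 3 (adjusted p up to 0.0770) for Ctsk and without model replicate 2, 3 or 4 or control replicate 1, 3 or 4 (adjusted p up to 0.127) for Mmp14. Without model day 10 replicate 1 the day 10 count was 5, and in a fit of the 2 groups alone it was 9. Among 10 collagen receptors, 2 were called lower at day 15, as were 6.56% of all genes, and 2 higher at day 10. The epithelial receptor Ddr1 differed by -0.44 at day 15, and Adgrg1, a receptor for type III collagen, by -0.44. The fibroblast receptor Ddr2 rose by 0.52 at day 10, with no library deciding its call. Lair1, the other receptor called at day 10, rose by 1.03 ± 0.33 (adjusted p = 0.0433). Its call was lost without model replicate 2, 3 or 4 or control replicate 1, 3 or 4 (adjusted p up to 0.131). It was also lost with no filter (adjusted p = 0.0614), with median-of-ratios scaling (adjusted p = 0.0527) and with limma's voom on recovered reads (adjusted p = 0.0792). The Ddr1 call was lost without control replicate 3 (adjusted p up to 0.0517) and that of Adgrg1 without model replicate 2 or 3 or control replicate 2, 3 or 4 (adjusted p up to 0.0741). Both were lost in a fit of the 2 groups alone (adjusted p = 0.0625 for Ddr1 and 0.0966 for Adgrg1). Medians of the 4 lists, in the order given, were 0.41, 0.44, 0.50 and 0.14 at day 15, and 0.40, 0.56, 0.54 and 0.14 at day 10.

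Cell type markers moved beside these genes. Of 10 fibroblast markers, 2 were called higher at day 15 (Dcn and Pdgfrb) and 1 at day 10 (Dcn), and the list shares 3 genes with the processing list. It summed to 1865 to 2891 FPKM in model against 1522 to 1839 FPKM in control libraries of day 15, and to 1921 to 2699 FPKM in model against 1251 to 2038 FPKM in control libraries of day 10. Dcn weighs most in these sums, with up to 1747 FPKM in a library. At day 15, 6 of the 10 had positive and 4 negative differences, with a median of 0.12. At day 10, 9 were positive and 1 negative, with a median of 0.45. Of 8 macrophage markers, 2 were called higher at day 15 and 8 at day 10. They summed to 892 to 1421 FPKM in model and 466 to 786 FPKM in control libraries of day 15, and to 736 to 1056 FPKM in model and 313 to 413 FPKM in control libraries of day 10. Of 6 hair matrix and shaft markers, 2 were called lower at day 15 and 4 at day 10. They summed to 1208 to 2065 FPKM in model and 2297 to 2818 FPKM in control libraries of day 15, and to 868 to 2076 FPKM in model and 1885 to 3247 FPKM in control libraries of day 10. Of 6 endothelial markers, which bear on Col4a1 and Col4a2 of vessel walls, 1 was called higher at day 15 (Vwf) and 2 at day 10 (Vwf and Tek). They summed to 73.9 to 91.7 FPKM in model and 58.2 to 68.8 FPKM in control libraries of day 15, and to 68.6 to 77.3 FPKM in model and 59.3 to 67.8 FPKM in control libraries of day 10. Of 5 erythroid markers, none was called at day 15 and 2 were called higher at day 10, both beta globins. They summed to 335.5 to 630.1 FPKM in model and 222 to 240.2 FPKM in control libraries of day 15, and at day 10 to 262 to 349 FPKM in model libraries, all above the control libraries, whose median was 182 FPKM. Over all genes 4.23% were called higher and 6.56% lower at day 15, and 6.79% higher and 7.04% lower at day 10. Leaving out 1 library gave 0 or 1 fibroblast and 0 to 2 endothelial markers called higher at day 15, and 0 to 2 erythroid markers at day 10. It gave 1 or 2 macrophage markers called higher at day 15 and 5 to 8 at day 10. Hair markers called lower were 0 to 3 at day 15 and 3 to 5 at day 10. No gene of these lists was at 0 in every library. Their part in the collagen differences was not tested.

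In treatment against model skin at day 15, 1 of 29 tested chains was called, Col6a5, which fell. Over all genes 19.7% were called, 10.3% higher and 9.32% lower. No chain had groups without overlap, against 7.98% of all genes upward and 4.79% downward. The median chain differed by -0.15, against -0.02 over all genes, and unadjusted p was under 0.05 for 6 chains. When each library was scaled to a common total, 29% of called genes were higher in place of 52.6%, and Col5a2 and Col6a5 were called lower. Col6a5 stood at 0.799, 1.76, 0.404 and 0.641 FPKM in treatment mice, against 1.02, 1.10, 10.2 and 3.98 FPKM in model mice. Treatment replicate 2 was above both low model mice, so the groups overlapped. Col6a5 was tested only because these model mice, where it is high, carried it past the filter. The difference was -1.09 ± 0.36 (adjusted p = 0.0404). It was -0.59 without model replicate 3, the mouse at 10.2 FPKM, and the call was lost without treatment replicate 1, 3 or 4 or model replicate 3 or 4 (adjusted p up to 0.136). It was also lost with no filter (adjusted p = 0.0577), with limma's voom on recovered reads (adjusted p = 0.0608), without the 4 treatment libraries of low Y-linked transcripts (adjusted p = 0.0765) and in a fit of these 2 groups alone (adjusted p = 0.295).

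Of 7 fibrillar chains none was called in treatment against model skin at day 15, and their median difference was -0.62. Unadjusted p was under 0.05 for 4 of them. Col3a1 stood at 2320, 3133, 693 and 1993 FPKM in treatment mice, against 2668, 3904, 2463 and 2557 FPKM in model mice. Treatment replicates 1, 3 and 4 were below all model mice, with replicate 3 the lowest, and replicate 2 was above all but 1. The difference was -0.68 ± 0.30 (adjusted p = 0.110). It was -0.22 without treatment replicate 3 (adjusted p = 0.416) and -0.95 without treatment replicate 2 (adjusted p = 0.0252). Col5a2 stood at 89.2, 127, 34.7 and 76.2 FPKM in treatment mice and 101, 144, 108 and 109 FPKM in model mice, and differed by -0.62 ± 0.24 (adjusted p = 0.0778). Treatment replicates 1, 3 and 4 were again below all model mice. Without treatment replicate 3 the Col5a2 difference was -0.26. Col1a1 stood at 2093, 2282, 585 and 1488 FPKM in treatment mice and 1977, 3608, 1631 and 2157 FPKM in model mice, with a difference of -0.65 ± 0.31 (adjusted p = 0.137). Col1a2 differed by -0.63 ± 0.29 (adjusted p = 0.125). In all 4 chains the groups overlapped. Without treatment replicate 2, 5 chains were called lower, and without treatment replicate 1, 3 or 4 or model replicate 4 none was. Leaving out the 3 day 15 treatment libraries of low Y-linked transcripts leaves replicate 3 alone for the group, and 11 chains were then called lower, with the spread of that lone mouse taken from the other groups.

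Col4a1 stood at 96.6, 154, 74.3 and 109 FPKM in treatment mice, against 129, 105, 104 and 118 FPKM in model mice, and differed by -0.12 ± 0.16. Col6a1 stood at 112, 165, 53.3 and 83.5 FPKM in treatment mice and 95.6, 134, 98.0 and 108 FPKM in model mice, and differed by -0.18 ± 0.24. Without treatment replicate 3 the differences were 0.05 for Col4a1 and 0.10 for Col6a1. Col14a1 stood at 26.1, 46.7, 15.6 and 25.3 FPKM in treatment mice and 27.8, 14.5, 27.5 and 24.4 FPKM in model mice, which overlapped. Col17a1 stood at 28.7, 27.2, 24.2 and 35.7 FPKM in treatment mice and 43.5, 35.7, 21.5 and 33.2 FPKM in model mice (-0.17 ± 0.16). Col6a6 stood at 3.02, 2.96, 1.25 and 2.23 FPKM in treatment mice and 3.05, 3.62, 2.49 and 3.56 FPKM in model mice (-0.34 ± 0.15, adjusted p = 0.116). Col4a3 and Col4a4 differed by 0.01 and 0.12.

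Some genes that handle collagen were called. Of 20 processing genes 3 fell in treatment against model skin at day 15, and none rose, where 9.32% of all genes fell and 10.3% rose. Lox stood at 58.2, 120, 17.6 and 95.5 FPKM in treatment mice, against 134, 133, 124 and 115 FPKM in model mice, with treatment replicate 3 the lowest. It differed by -1.09 ± 0.36 (adjusted p = 0.0414), and the call was lost without treatment replicate 1 or 3 or model replicate 1, 2, 3 or 4 (adjusted p up to 0.0998) and with no filter (adjusted p = 0.0596). Dcn stood at 841, 985, 539 and 1004 FPKM in treatment mice and 1278, 1747, 1163 and 1269 FPKM in model mice, without overlap (-0.72 ± 0.17, adjusted p = 0.00875). Ctsk stood at 315, 238, 106 and 272 FPKM in treatment mice and 448, 882, 322 and 501 FPKM in model mice, also without overlap (-1.22 ± 0.31, adjusted p = 0.0116). Mmp14 differed by -0.65 ± 0.20 (adjusted p = 0.0280), a call lost without treatment replicate 1 or 3 or model replicate 2 (adjusted p up to 0.0865). Of 17 breakdown genes these 2 alone were called, a share near that of all genes that fell. Of 19 synthesis genes 4 fell: P3h2, Fkbp14, Tmem38b and Mia3. Mia3, which exports procollagen from the endoplasmic reticulum, differed by -0.27 ± 0.06 (adjusted p = 0.00485) and stayed called when any 1 library was left out. The other 3 calls were each lost without treatment replicate 1 or 4 or model replicate 2, which left a count of 1, and with no filter (adjusted p between 0.0547 and 0.0672). Of 10 receptors, Ddr2 fell (-0.49 ± 0.11), while Ddr1 (0.29 ± 0.10) and Adgrg1 (0.49 ± 0.11) rose. The Ddr1 call was lost without treatment replicate 1, 3 or 4 or model replicate 2 or 3 (adjusted p up to 0.146), with no filter (adjusted p = 0.0593) and after scaling to a common total (adjusted p = 0.136). In a fit of these 2 groups alone no gene of the 4 lists was called, and the genes called above had adjusted p between 0.142 for Ddr2 and 0.286 for Lox. Without treatment replicate 2, 7 synthesis and 8 processing genes fell. The synthesis count was 2 without treatment replicate 3 or model replicate 4, and the processing count 1, Dcn, without treatment replicate 1 or 3 or model replicate 1, 2 or 4. Without the 4 treatment libraries of low Y-linked transcripts only 1 treatment mouse was left at day 15. More synthesis and processing genes then fell, but P3h2, Tmem38b, Adgrg1 and Lum of the processing list were no longer called.

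**Figure D4:**
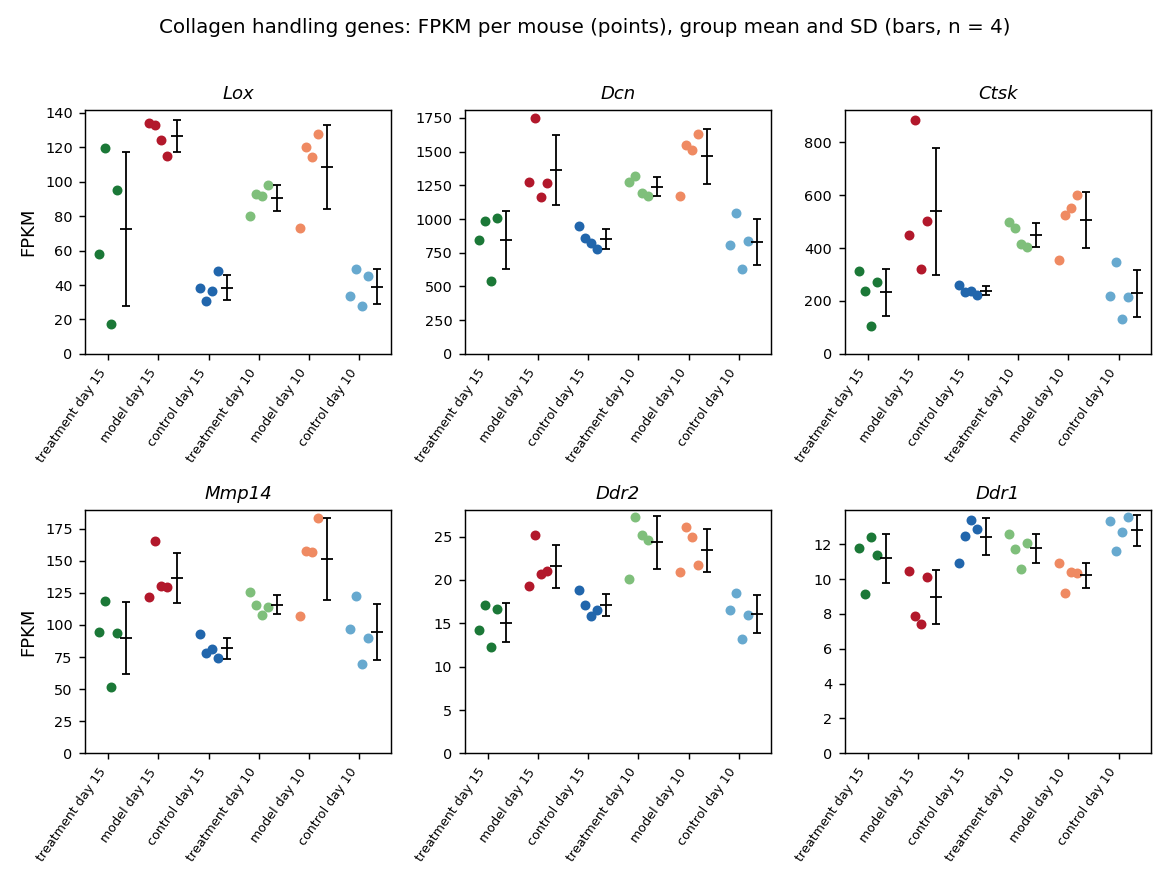
FPKM per mouse (points) with group mean and SD (bars, n = 4) for 6 genes that cross-link, bind, cleave or sense collagen. Lox, Dcn and Ctsk show treatment means of day 15 below the model means, and Ddr1 shows the reverse order.

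Fibroblast markers summed to 1077 to 1737 FPKM in treatment against 1865 to 2891 FPKM in model libraries of day 15, and 2 of 10, Dcn and Lum, were called lower. Macrophage markers summed to 342 to 1414 FPKM in treatment and 892 to 1421 FPKM in model libraries, with 2 of 8 called lower. Hair matrix and shaft markers summed to 2466 to 3348 FPKM in treatment and 1208 to 2065 FPKM in model libraries, with 6 of 6 called higher. Over all genes 9.32% were called lower and 10.3% higher. Leaving out 1 library gave 1 or 2 fibroblast and 1 to 4 macrophage markers called lower, and 2 to 6 hair markers called higher. The Lum call (adjusted p = 0.0476) was lost without treatment replicate 1, 2 or 3 or model replicate 1, 2 or 4 (adjusted p up to 0.16). It was also lost with no filter (adjusted p = 0.0674) and in a fit of the 2 groups alone (adjusted p = 0.173). None of the 24 marker genes was at 0 in every library, and their part in the collagen values was not tested.

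In treatment against model skin at day 10 limma called none of the 29 chains, and 0.192% of all genes (0.092% higher and 0.0997% lower). Unadjusted p was under 0.05 for 3 chains, and limma's voom on recovered reads also called 0. The median chain differed by -0.06, against -0.03 over all genes. Of called genes 48% were higher, or 36% with a common total. Col3a1 stood at 2261, 2286, 2630 and 2371 FPKM in treatment mice, against 2021, 2966, 2646 and 3169 FPKM in model mice (-0.16 ± 0.30). Col1a1 stood at 2087, 2053, 2450 and 1812 FPKM in treatment mice and 1641, 2121, 2330 and 2549 FPKM in model mice (-0.03 ± 0.31). Treatment values lay inside or near the model range in both chains. Col4a4 stood at 2.34, 1.94, 2.22 and 1.87 FPKM in treatment mice and 2.78, 3.59, 3.23 and 3.32 FPKM in model mice. All 4 treatment mice were below all model mice, a difference of -0.45 ± 0.16 that did not pass (adjusted p = 0.290). Col4a3 differed by -0.34 ± 0.15. Col18a1 was the one chain with all treatment values above all model values (0.27 ± 0.12, adjusted p = 0.452). Groups without overlap made up 2.75% of all genes upward and 6.24% downward. Kap was present in the model and absent in the treatment libraries, and its part in the Col4a4 values was not tested.

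Treatment against control skin gave no called chain at either day, with unadjusted p under 0.05 for 5 chains at day 15 and 11 at day 10, and voom also called 0 at each. Of all genes 0.314% were called at day 15, 0.0307% higher and 0.284% lower, and 3.24% at day 10, 2.2% higher and 1.04% lower. These comparisons share their treatment and control libraries with the others above. At day 10 the median chain differed by 0.28, and 10 of 29 chains had treatment values above all control values, against 11.4% of all genes. Col5a2 stood at 98.8, 100, 113 and 109 FPKM in treatment mice and 59.1, 70.5, 47.9 and 57.4 FPKM in control mice, without overlap (0.84 ± 0.24, adjusted p = 0.0582). In a fit of these 2 groups alone 12 chains were called higher at day 10, and without treatment replicate 3, the day 10 library of low Y-linked transcripts, the count was 0. Without that library and the 3 such libraries of day 15 together it was 3. These counts have no share of all genes from the same fit beside them. Of called genes in the main fit 67.8% were higher at day 10, or 78.4% with a common total. At day 15 the median chain differed by 0.20, and Col3a1 by 0.44 ± 0.30 (adjusted p = 0.427). Without treatment day 15 replicate 3, 8 chains were called higher there. Col17a1 had all treatment values below all control values at day 15 (-0.56 ± 0.16, adjusted p = 0.102), as did 4.0% of all genes, and so did Col4a5. At day 10, 2 of 20 processing genes and 1 each of 19 synthesis, 17 breakdown and 10 receptor genes were called higher. So were 5 of 8 macrophage and 4 erythroid markers, but no fibroblast marker. Leaving out 1 library gave 0 to 3 processing genes and 1 to 4 macrophage and 0 to 4 erythroid markers. At day 15 none of these lists had a call. Their part in the collagen values was not tested.

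Whether these differences changed with time was tested directly. No chain was called by limma in the test of the model-control difference at day 15 minus that at day 10, with 0 chains under an unadjusted p of 0.05 and 0 called by voom. Of all genes 0.0% were called. Col6a5, which met the filter only through the model mice of day 15, had the largest change of the 29, 1.04 ± 0.52 (unadjusted p = 0.0578). In the same test of the treatment-model difference no chain was called, with 1 chain, Col4a4, under an unadjusted p of 0.05 and 0 called by voom, where 0.0997% of all genes were called, 0.0614% higher and 0.0383% lower. Col4a4 changed by 0.57 ± 0.22 (adjusted p = 0.244) and Col3a1 by -0.52 ± 0.42 (adjusted p = 0.608). Without the treatment libraries of low Y-linked transcripts, 5 chains were called lower there, with 1 treatment mouse left at day 15.

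Col11a1, a minor fibrillar chain best known from cartilage, fell in all 3 conditions at day 15 against day 10. In treatment mice it stood at 2.19, 5.49, 2.01 and 4.64 FPKM at day 15, against 13.0, 13.8, 14.2 and 12.6 FPKM at day 10. In model mice it stood at 6.10, 1.32, 1.93 and 6.81 FPKM at day 15 and 8.46, 15.2, 16.7 and 19.2 FPKM at day 10. Control mice had 4.28, 2.19, 2.03 and 1.87 FPKM at day 15 and 13.2, 16.3, 5.23 and 10.8 FPKM at day 10. No day 15 mouse reached a day 10 mouse of its condition. The differences were -1.73 ± 0.37 in treatment, -1.79 ± 0.37 in model and -1.74 ± 0.37 in control skin (adjusted p = 0.00843, 0.00980 and 0.0161). The treatment call held when any 1 library was left out. The model call was lost without model day 15 replicate 3 (adjusted p = 0.0536) and in a fit of both model groups alone (adjusted p = 0.149), and the control call without control day 10 replicate 2 or control day 15 replicate 2 or 4 (adjusted p up to 0.0636). Acan, a cartilage marker, fell beside it, with differences of -0.74, -0.69 and -0.72 in treatment, model and control skin. Acan was low, with at most 1.665 FPKM in any library. Of the 6 genes of the cartilage list 2 were tested, and the one beside Acan differed by -0.11, 0.015 and 0.09. The summed list ranged over 10.4 to 21.1 FPKM at day 15 and 13.1 to 25.3 FPKM at day 10. Its member Sox9 alone reached 24.02 FPKM in a library, so the sum says little of Acan. The smooth muscle list had 1 of 5 called lower in treatment, 2 in model and 2 in control skin, where 7.53%, 6.85% and 3.33% of all genes were. It summed to 94.0 to 168 FPKM at day 15 and 135 to 246 FPKM at day 10. The part of either list in the Col11a1 values was not tested.

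**Figure D5:**
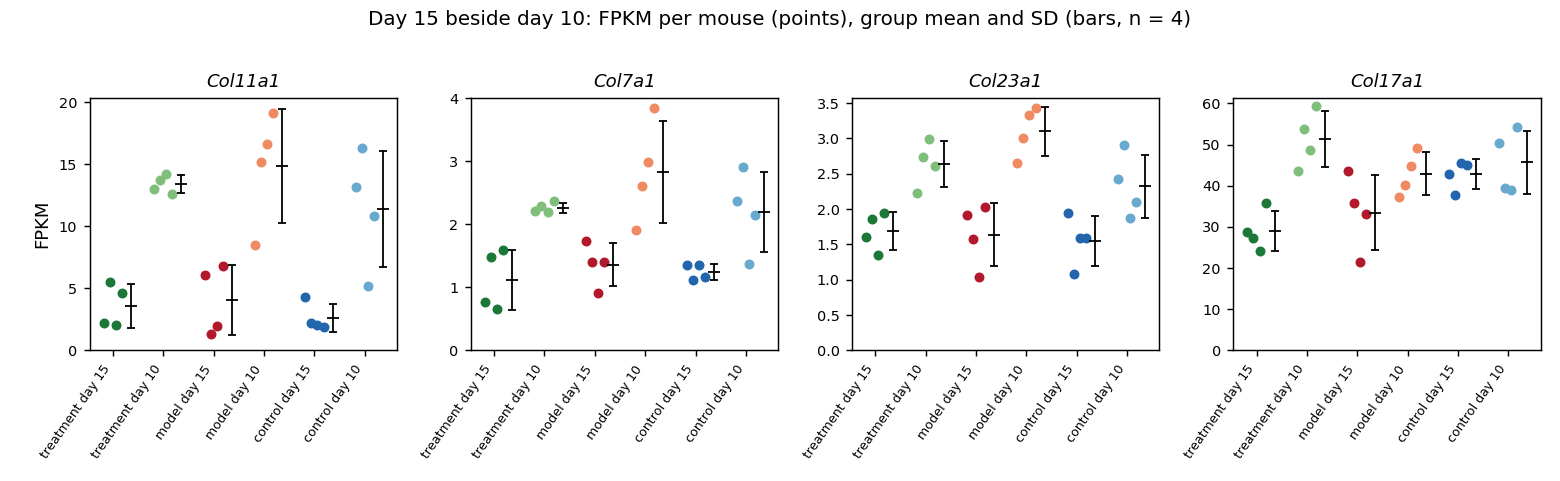
FPKM per mouse (points) with group mean and SD (bars, n = 4) for 4 chains at day 15 and day 10 of each condition. Col11a1 points of day 15 lie below all day 10 points in each condition, and Col17a1 is separated by day in treatment skin.

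In treatment skin 5 of 29 chains fell at day 15 against day 10, and 9.64% of all genes were called, 2.11% higher and 7.53% lower. Groups did not overlap for 5 chains, all lower, against 9.57% of all genes lower and 4.65% higher. Col17a1 stood at 28.7, 27.2, 24.2 and 35.7 FPKM at day 15, against 43.5, 53.9, 48.8 and 59.4 FPKM at day 10, without overlap. It differed by -0.81 ± 0.16 (adjusted p = 0.00658) and stayed called when any 1 library was left out. Beside it 3 of 5 basal keratinocyte markers fell, and the list summed to 876 to 1150 FPKM at day 15 and 1219 to 1399 FPKM at day 10. Their part in the Col17a1 values was not tested. Col7a1 stood at 0.761, 1.48, 0.654 and 1.59 FPKM at day 15 and 2.21, 2.29, 2.20 and 2.37 FPKM at day 10 (-0.65 ± 0.17). Col23a1 averaged 1.69 ± 0.270 FPKM at day 15 and 2.64 ± 0.323 FPKM at day 10 (-0.44 ± 0.13), and Col6a3 31.1 ± 12.5 FPKM at day 15 and 51.1 ± 9.32 FPKM at day 10 (-0.75 ± 0.22; SD, n = 4 each). These calls were lost without treatment day 10 replicate 2 or 4 or treatment day 15 replicate 1 (adjusted p up to 0.0727) for Col7a1, without treatment day 10 replicate 2, 3 or 4 or treatment day 15 replicate 1 or 3 (adjusted p up to 0.0919) for Col23a1 and without treatment day 10 replicate 2, 3 or 4 or treatment day 15 replicate 1, 3 or 4 (adjusted p up to 0.0810) for Col6a3. Those of Col23a1 and Col6a3 were also lost with median-of-ratios scaling (adjusted p = 0.0517 and 0.058), and all 3 in a fit of the 2 groups alone (adjusted p between 0.0593 and 0.148). Beside them 3 of 10 fibroblast markers, Pdgfrb, Dcn and Lum, were called lower, with a median of -0.60 over the list. The list summed to 1077 to 1737 FPKM at day 15 and 1959 to 2196 FPKM at day 10. Of 20 processing genes 5 were called lower, 2 of them Dcn and Lum again. None of the 10 fibroblast markers was called without treatment day 10 replicate 2 or 4 or day 15 replicate 1, and the processing count was 1 without day 10 replicate 4 or day 15 replicate 1. The part of these genes in the collagen values was not tested. Without treatment day 15 replicate 2, 13 chains were called lower. The count was 2 without treatment day 10 replicate 2 or 4 or day 15 replicate 1, and 3 without day 10 replicate 3 or day 15 replicate 3.

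In model skin 4 of 29 chains fell at day 15 against day 10, where 8.47% of all genes were called, 1.62% higher and 6.85% lower. Groups did not overlap for 4 chains, all lower, against 12.8% of all genes lower and 2.65% higher. Beside Col11a1 these were Col23a1 (-0.65 ± 0.13, adjusted p = 0.00748), Col7a1 (-0.69 ± 0.17, adjusted p = 0.0180) and Col4a4 (-0.51 ± 0.16, adjusted p = 0.0463). Col7a1 stood at 1.74, 1.40, 0.903 and 1.40 FPKM at day 15 and 1.91, 2.61, 3.00 and 3.84 FPKM at day 10, without overlap. The call for Col7a1 was lost without model day 10 replicate 4 or model day 15 replicate 3 (adjusted p up to 0.0939) and that for Col4a4 without model day 10 replicate 2, 3 or 4 or model day 15 replicate 2 or 3 (adjusted p up to 0.174). The Col4a4 call was also lost with a pseudocount of 0.1 (adjusted p = 0.0612), with no filter (adjusted p = 0.0565) and with median-of-ratios scaling (adjusted p = 0.115). The number called was 1 without model day 15 replicate 3, 2 without model day 10 replicate 4 and 6 without model day 15 replicate 1. A fit of these 2 groups alone called 0. In control skin Col11a1 was the only chain called, where 4.81% of all genes were, 1.48% higher and 3.33% lower. Groups did not overlap for 3 chains, all lower, against 15.4% of all genes lower and 7.01% higher, and 3 chains were called in a fit of these 2 groups alone. Without control day 10 replicate 3 the count was also 3, and without control day 10 replicate 2 or day 15 replicate 2 or 4 it was 0. Median-of-ratios scaling moved the median of all genes by 0.10 in the model comparison. It moved the share of called genes that were higher to 46.4%, 54.1% and 59.6% in treatment, model and control skin, in place of 21.9%, 19.1% and 30.8%, and a common total moved it to 8.27% in treatment skin. Col11a1 was called in each condition under both scalings.

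Ratios of chains within a library do not depend on how libraries are scaled. Col3a1 over Col1a1, the balance of type III to type I collagen, lay between 1.08 and 1.51 in model mice of day 15, against at least 1.003 in control mice, where replicate 1 overlapped the model range. The log2 ratio differed by 0.26 (exact permutation test, two-sided, p = 0.0571). Col1a1 over Col1a2 lay between 0.821 and 0.856 in model mice of day 15, against 0.709 to 0.786 in control mice. It differed by 0.14 (exact permutation p = 0.0286, the smallest that 4 against 4 mice can give, adjusted p = 0.571 over 20 tests). None of the 20 tests, of 5 ratios in 4 comparisons, passed. Col4a1 over Col4a2 stayed between 1.58 and 1.95 and Col6a1 over Col6a2 between 1.57 and 1.89 in the libraries compared.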

How the data were processed

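Total RNA was extracted from skin with TRIzol and made into libraries of what the labels call polyA RNA, with a VAHTS Universal kit, per the labels' protocols, and each library is 1 mouse. The authors deposited 1 table of FPKM values of 18892 genes in 24 libraries. The submitters' processing notes name fastp, HISAT2, HTSeq and the mouse build GRCm39, while versions and the counting strand were not given in the sources used here. FPKM totals per library ran between 413117 and 455945. The FPKM steps gave whole reads for 100.0% of the 18715 genes above 0, within 0.01 reads, or 0.05 for high counts, and between 37048896 and 41117262 reads per library.

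Genes with at least 1 FPKM in at least 4 libraries (13039) were tested with limma 3.58.1 in R 4.3.3 on log2(FPKM + 1), with 1 mean per group over 24 libraries, a trended and robust variance, and Benjamini-Hochberg adjustment within each of 11 comparisons. A fold on that scale understates the change of low genes. The script was tested on simulated data. Limma's voom on recovered reads called 1385 genes in model against control skin at day 15 and 1704 at day 10, and 2588 in treatment against model skin at day 15 and 16 at day 10. Ratios of chains were tested by exact permutation. Other alternatives were the pseudocount, no filter, 2 scalings, only the groups compared, a replicate block and each library left out. An alternative without 4 treatment libraries of low Y-linked transcripts was chosen after seeing the data.

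Members and lists were chosen with earlier results of these data known. All members may be named. Values per library are given for those called and for the member of highest level in each class, and those of other chains were added after their values were seen, as were the 6 genes plotted beside the lists. In each list of handling genes the 4 of smallest p and up to 6 called genes may be named.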

Additional observations from a re-analysis of the deposited data

Results flagged for a closer look

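In 7 of 186 sets of 4 mice (31 chains in 6 groups), 1 mouse stood far from the other 3 by Dixon's criterion, which chance meets in about 1 of 20 such sets, and each was the highest of its group. In model skin of day 15, replicate 2 stood at 3904 FPKM for Col3a1 and 73.6 FPKM for Col5a1. In treatment skin of day 15, replicate 2 stood at 38.3 FPKM for Col5a3. In treatment skin of day 10, replicate 3 stood at 40.9 FPKM for Col15a1 and replicate 1 at 3.15 FPKM for Col8a2. In control skin of day 15, replicate 1 stood at 4.28 FPKM for Col11a1 and replicate 3 at 0.822 FPKM for Col20a1.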

How the results depend on the processing

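Counts of called chains moved most with the libraries fitted. The share of all genes called in each of these fits is not given, so the moves are not read as particular to collagen. In a fit of only the groups compared, the count was 8 for model against control skin at day 10, 0 for treatment against model skin at day 15, 12 for treatment against control skin at day 10, and 2, 0 and 3 for day 15 against day 10 in treatment, model and control skin. For treatment against model skin at day 15 it was 2 with a common total per library, and 0 with no filter and with voom on recovered reads. For day 15 against day 10 in treatment skin it was 3 with median-of-ratios scaling and 7 with a common total, which added Col12a1 and Col4a1. In model skin it was 3 with median-of-ratios scaling, which lost Col4a4. Without the 4 treatment libraries of low Y-linked transcripts it was 11 for treatment against model skin at day 15, 3 for treatment against control skin at day 10, 15 for the days in treatment skin and 5 for the change of the treatment-model difference. Leaving out 1 library gave 0 to 8 for model against control skin at day 10, 3 to 5 at day 15, 0 to 5 for treatment against model skin at day 15, 0 to 8 for treatment against control skin at day 15, and 2 to 13, 1 to 6 and 0 to 3 for the days in treatment, model and control skin. It gave 0 to 0 in the other 4 comparisons. Causes were not tested.

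Small differences turned sign in treatment against model skin. At day 10, Col1a1 was 0.019 and Col1a2 0.014 with median-of-ratios scaling, and Col6a1 was -0.055 without the libraries of low Y-linked transcripts. Without 1 library, Col1a1 ranged over -0.16 to 0.056, Col1a2 over -0.15 to 0.039, Col5a2 over -0.19 to 0.024 and Col6a1 over -0.11 to 0.17. At day 15 Col4a1 ranged over -0.30 to 0.048 and Col6a1 over -0.44 to 0.097, with the highest values without treatment replicate 3.

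Same-numbered mice correlated between -0.631 and 0.509 in their deviations from group means, and in no comparison were all 4 pairs over 0.1. In treatment against model skin at day 10 all 4 were positive (0.055 to 0.45). Deviations of 4 mice from their own mean are tied to each other, so these values cannot tell whether the numbers pair the mice. The labels do not say so. With the replicate number as a block, the count for the days in control skin was 2, and none of 39 tested results of single chains changed its call, while 3 of 41 of other genes lost theirs: Serpinh1 (adjusted p = 0.0564) and Loxl3 (adjusted p = 0.0599) in model against control skin at day 15 and P3h2 (adjusted p = 0.0607) in treatment against model skin at day 15.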

Other observations

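Several collagen genes lie next to each other in the genome, by RefSeq on GRCm38.p6, a pattern noticed after the values were seen. Among protein-coding genes, 6 pairs of members are neighbours: Col3a1 with Col5a2, Col4a3 with Col4a4, Col6a5 with Col6a6, Col4a1 with Col4a2, Col6a1 with Col6a2 and Col4a5 with Col4a6. These pairs hold 12 of the 31 members. The 6 chains called in model against control skin at either day form 3 of these pairs. Col3a1 and Col5a2 were called at both days, Col6a5 and Col6a6 at day 15, and Col4a3 and Col4a4 at day 10. The gene bodies overlap in the pairs Col4a3 with Col4a4 and Col4a1 with Col4a2, whose reads may be shared.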
